A study of Homo sapiens with 6 samples.

Results

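The GDF3-DPPA3-NANOG locus is a run of genes on the short arm of human chromosome 12, described here in H7 cells with and without knockdown of SAMD4A. Its 9 members were taken by gene symbol from the 60664 genes of the deposited table: APOBEC1, GDF3, DPPA3, NANOGNB, NANOG, SLC2A14, NANOGP1, SLC2A3 and FOXJ2, in their order along the chromosome. They span 406 kb, from 7649400 to 8055517 in GRCh38. They were selected on measured values of this same contrast, above all the high GDF3 and DPPA3 counts in knockdown cells, so their own differences between the groups are given as a description, without a test. The question was whether neighbours move together along the locus.

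H7 is an established human embryonic stem cell line, here grown on Matrigel in mTeSR Plus medium. The series holds 3 libraries with the genotype SAMD4A knockdown and 3 with the genotype control, all made from poly-A RNA. The SAMD4A product, a Smaug family protein, binds messages and can repress their translation. The construct behind the knockdown, and whether the line is 1 clone, are not stated in the sources used here, and nothing says that replicates were separate cultures, so p-values measure only the spread between these libraries. SAMD4A had 27.4, 28.5 and 28.5 CPM in knockdown replicates 1 to 3, against 52.2, 56.0 and 49.8 CPM in control replicates 1 to 3. CPM stands for counts per 1000000, with library totals corrected by TMM factors, which align the bulk of the genes between libraries. The groups did not overlap, and the knockdown level was 0.534 of the control level (log2 fold change -0.90 ± 0.07, SE; edgeR adjusted p = 9.0e-08), so the knockdown was partial. Library totals were 19588021 to 21355171 counts in knockdown and 19270688 to 20070027 counts in control. Among markers of the labelled cell type, POU5F1, the transcription factor OCT4, averaged 1877 ± 104 CPM in knockdown and 1642 ± 54.3 CPM in control (SD, n = 3 each). The other primed pluripotency markers listed went both ways. By log2 fold change, DNMT3B was higher (1.07), while ZIC2 (-0.36), SALL4 (-0.14) and OTX2 (-0.66) were lower, all at edgeR adjusted p under 0.05. SOX2 and LIN28A, each at -0.02, were not past that threshold. Among markers of other types, the 10 mesendoderm genes listed summed to 3.51 to 12.5 CPM over the knockdown libraries and 5.16 to 6.10 CPM over the control libraries, with the highest sum in knockdown replicate 1. The 10 neuroectoderm genes summed to 478 to 646 CPM over the knockdown libraries and 439 to 469.8 CPM over the control libraries, most of it from NES.

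NANOG is a homeodomain transcription factor that, with OCT4 and SOX2, keeps embryonic stem cells undifferentiated. GDF3 is a secreted ligand of the TGF-beta family that signals, like NODAL, through activin receptors and the co-receptor TDGF1, and it can also hold back BMP ligands. DPPA3, also called STELLA or PGC7, is a chromatin-bound protein of oocytes, early embryos and primordial germ cells, which in the mouse guards DNA methylation after fertilisation and binds UHRF1. Between and beside these pluripotency genes lie SLC2A3, which encodes the high-affinity glucose transporter GLUT3, and its duplicate SLC2A14, which encodes GLUT14. APOBEC1 encodes the enzyme that edits the apolipoprotein B message in the intestine, FOXJ2 a forkhead transcription factor, and NANOGNB a homeobox protein named for its place beside NANOG. NANOGP1 is a tandem duplicate of NANOG that is annotated as a transcribed pseudogene. Gains of the short arm of chromosome 12 are well known in germ cell tumours and in cultured pluripotent cells.

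The promoters of the 3 pluripotency genes are shown because GDF3 and DPPA3 differed from NANOG in their direction. They run from 250 bases before to 50 bases after the RefSeq start in GRCh38.p14, at chr12:7695726-7696025 on the minus strand for GDF3, at chr12:7711183-7711482 on the plus strand for DPPA3 and at chr12:7789152-7789451 on the plus strand for NANOG. Capitals mark matches, on either strand, to the octamer TTTGCAT read by OCT4 and to ACAATG read by SOX factors.
GDF3: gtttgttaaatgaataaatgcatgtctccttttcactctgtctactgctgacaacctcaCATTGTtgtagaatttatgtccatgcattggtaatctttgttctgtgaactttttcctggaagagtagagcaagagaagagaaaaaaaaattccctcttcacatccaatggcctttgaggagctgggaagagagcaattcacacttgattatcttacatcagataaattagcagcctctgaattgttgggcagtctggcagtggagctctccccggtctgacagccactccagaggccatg
DPPA3: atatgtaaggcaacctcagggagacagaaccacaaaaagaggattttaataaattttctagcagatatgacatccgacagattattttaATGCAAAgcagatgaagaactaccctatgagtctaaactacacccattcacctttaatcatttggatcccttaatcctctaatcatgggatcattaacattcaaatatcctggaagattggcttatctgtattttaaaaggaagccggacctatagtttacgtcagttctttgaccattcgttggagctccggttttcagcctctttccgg
NANOG: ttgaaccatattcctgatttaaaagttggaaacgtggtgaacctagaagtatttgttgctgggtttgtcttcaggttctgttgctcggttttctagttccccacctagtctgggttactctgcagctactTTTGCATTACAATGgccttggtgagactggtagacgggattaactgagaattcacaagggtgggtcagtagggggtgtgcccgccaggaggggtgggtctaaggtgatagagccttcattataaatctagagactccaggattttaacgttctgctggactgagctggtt
The NANOG promoter held both motifs side by side, 1 base apart, as the composite TTTGCATNACAATG that begins 120 bases before the start. That composite was found in 3 of 35116 promoters of the same length (0.00854%). The DPPA3 promoter held the octamer on the minus strand, and the GDF3 promoter held the SOX motif on the minus strand. The octamer was in 4.46% of all promoters and the SOX motif in 10.8%. Of the 7 members with a promoter in the RefSeq table, 3 held the octamer, the third being APOBEC1 with 2 matches, and 2 held the SOX motif. SLC2A3 and NANOGP1 had no entry there. A match describes letters and is no evidence that a factor was bound.

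The locus did not move as 1 block. GDF3 and DPPA3, which lie 15657 bases apart on opposite strands, were high in knockdown cells, and the members from NANOG to FOXJ2 were all lower in them. The change of direction fell between the end of DPPA3 at 7717559 and the start of NANOG at 7787794, where NANOGNB was close to silent. Of the 9 members, 7 passed the filter on low counts, 2 of them higher and 5 lower in knockdown. All 7 were past the threshold of the fit across all genes (edgeR adjusted p under 0.05), where 51.7% of 17258 tested genes were, 26.1% higher and 25.6% lower. The groups did not overlap in any of the 7, against 58.3% of all tested genes, 28.9% higher and 29.4% lower. Since the members were picked with this contrast known, and since DPPA3 passed the filter through its knockdown libraries, nothing is read from these counts.

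**Figure D1:**
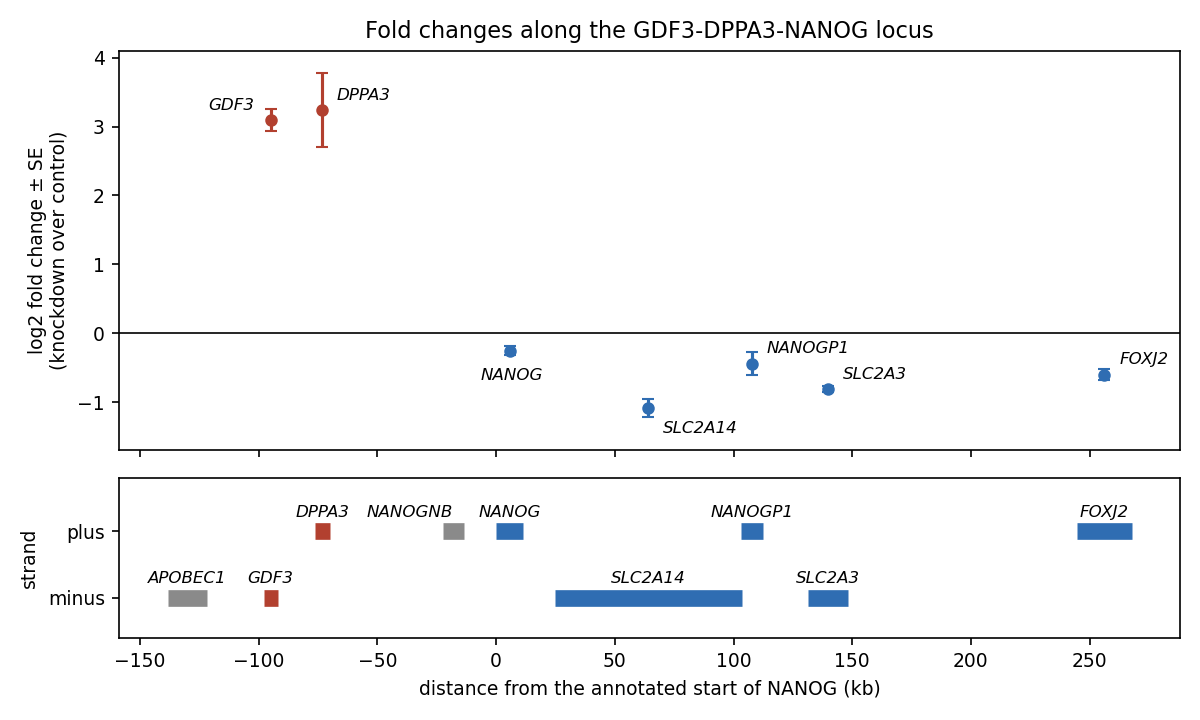
Log2 fold change of knockdown over control with its standard error (upper panel, 7 members that passed the low-count filter) and the extent and strand of all 9 members (lower panel), against the distance in kb from the annotated start of NANOG. Red genes were higher in knockdown, blue genes lower, and grey genes were not tested: GDF3 and DPPA3 sit at 3.09 and 3.24, and the 5 genes from NANOG to FOXJ2 lie between -1.09 and -0.25.

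GDF3 (ENSG00000184344, chromosome 12, 7689784 to 7695775, minus strand) was the clearest of the higher members. It had 304, 409 and 334 counts in knockdown replicates 1 to 3, against 45, 48 and 39 counts in control replicates 1 to 3. On the CPM scale these were 15.1, 20.8 and 18.0 in knockdown and 2.14, 2.36 and 1.85 in control. The lowest knockdown library was thus far above the highest control library, and the log2 fold change was 3.09 ± 0.16 (SE), a fold of 8.49. No 150-base stretch of the annotated GDF3 transcripts also occurred in a transcript of another gene. Per kilobase of exon, the GDF3 level was 14.6 ± 2.29 CPM in knockdown and 1.71 ± 0.21 CPM in control (SD, n = 3 each). For NANOG that level was 12.8 ± 1.46 CPM in knockdown and 15.2 ± 0.565 CPM in control. Per length, then, GDF3 stood at about the NANOG level in knockdown cells and well under it in control cells. This rests on the deposited exon lengths, 1236 bases for GDF3 and 5182 bases for NANOG. Before division by length, GDF3 averaged 18.0 CPM and NANOG 66.1 CPM in knockdown. Which NANOG transcripts were present was not tested, so the likeness per length is uncertain.

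DPPA3 (ENSG00000187569, chromosome 12, 7711433 to 7717559, plus strand) had a fold of like size at far lower counts. It had 15, 54 and 39 counts in knockdown replicates 1 to 3, and 3, 3 and 6 counts in control replicates 1 to 3. The levels were 0.747, 2.75 and 2.11 CPM in knockdown, against 0.143, 0.148 and 0.284 CPM in control. The groups did not overlap, but knockdown replicate 1 lay well under the other knockdown libraries, at 1.58 above the control mean on the log2 scale where replicates 2 and 3 lay at 3.33 and 2.96. The fitted log2 fold change was 3.24 ± 0.54 (SE), and 3.62 without knockdown replicate 1. From the summed counts, 108 in knockdown and 12 in control, the scaled ratio was 9.65, with a 95% exact binomial interval of 5.31 to 19.3 that covers counting error only. With 12 counts in 3 libraries the control level is at the edge of detection. In control cells DPPA3 ranked at the 2.4th percentile of tested genes by level per length. Its pseudogene copy DPPA3P2 on chromosome 14, named after its values were seen, had 1, 7 and 8 counts in knockdown and 1 count in each control library. It shares 1.3% of the 150-base stretches of DPPA3, so the source of these few reads is uncertain.

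**Figure D2:**
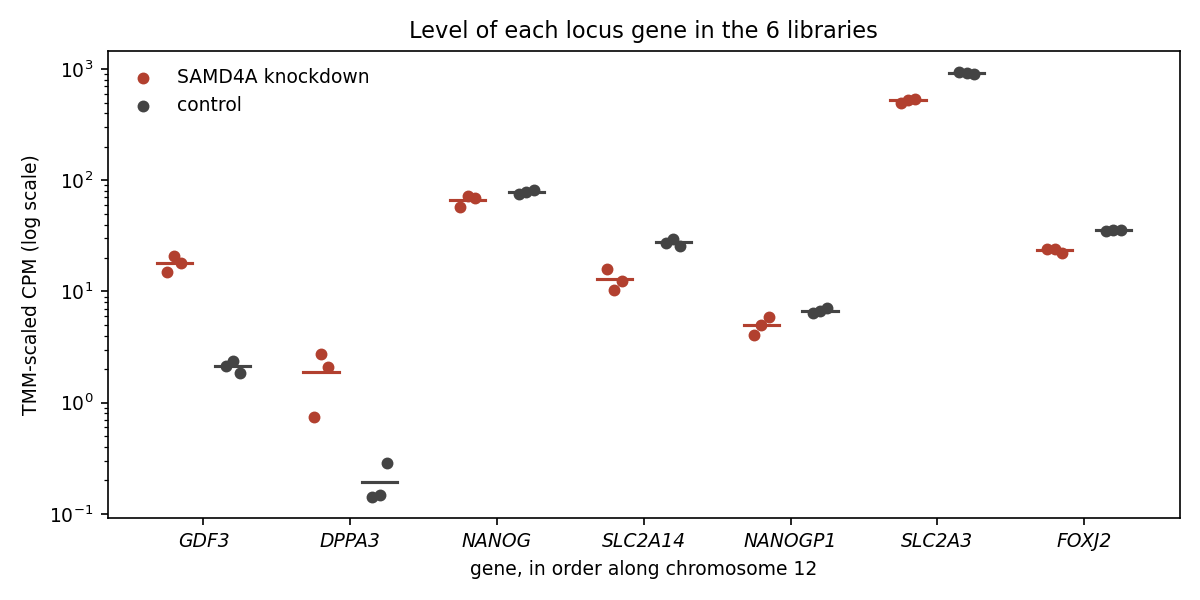
TMM-scaled CPM on a log axis for the 7 members that passed the low-count filter, in order along the chromosome. Each point is 1 library and each bar the mean of 3, with SAMD4A knockdown left of control: the knockdown points lie above all control points for GDF3 and DPPA3, and below them for the other 5 genes.

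NANOG (ENSG00000111704, chromosome 12, 7787794 to 7799146, plus strand) was slightly lower in knockdown cells. It had 57.6, 72.1 and 68.6 CPM in knockdown replicates 1 to 3, against 75.9, 78.0 and 81.7 CPM in control replicates 1 to 3. The gap between the groups, from 72.1 CPM in knockdown replicate 2 to 75.9 CPM in control replicate 1, was smaller than the spread within knockdown. The log2 fold change was -0.25 ± 0.07 (SE), with knockdown replicate 1 at -0.45 and replicates 2 and 3 at -0.12 and -0.19. Without knockdown replicate 1 it was -0.15. The position of NANOG past the threshold was lost without control replicate 3, at a log2 fold change of -0.22.

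NANOG has near-identical copies, and their counts cannot be fully told apart. The first 120 bases of the NANOG coding sequence and their counterparts in the tandem copy NANOGP1 and in NANOGP8, a retrocopy on chromosome 15, are shown to make this visible. Capitals mark bases of a copy that differ from NANOG.
NANOG: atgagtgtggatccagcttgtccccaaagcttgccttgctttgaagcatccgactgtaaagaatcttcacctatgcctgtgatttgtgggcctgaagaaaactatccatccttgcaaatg
NANOGP1: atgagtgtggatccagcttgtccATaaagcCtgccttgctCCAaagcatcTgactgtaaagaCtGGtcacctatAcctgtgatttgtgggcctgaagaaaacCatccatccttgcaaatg
NANOGP8: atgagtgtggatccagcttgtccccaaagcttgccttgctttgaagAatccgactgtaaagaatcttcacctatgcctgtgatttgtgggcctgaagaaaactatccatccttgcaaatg
NANOGP1 differed at 12 of these positions and NANOGP8 at 1. NANOGP1 was 97.6% identical to NANOG over the 912 coding bases that aligned, with 3 more in gaps, and NANOGP8 was 99.5% identical over 915. Of the 150-base stretches in annotated transcripts, 9.5% of those of NANOG, 11.1% of those of NANOGP1 and 43.5% of those of NANOGP8 also occurred in another gene. How the authors counted reads that map to several places is not stated in the sources used here.

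NANOGP1 (ENSG00000176654, chromosome 12, 7890801 to 7900140, plus strand) followed NANOG at a lower level. It had 4.03, 4.99 and 5.89 CPM in knockdown replicates 1 to 3, and 6.42, 6.74 and 7.05 CPM in control replicates 1 to 3. The groups did not overlap, and the log2 fold change was -0.44 ± 0.17 (SE). Its place past the threshold was lost with DESeq2, with no filter on low counts and in 5 of 6 fits that left out 1 library. Those 5 fits left out a control replicate, or knockdown replicate 1 or 2. NANOGP1 made up 6.47% to 7.90% of the counts of NANOG and NANOGP1 together in knockdown libraries and 7.79% to 7.96% in control libraries, so these shares overlapped. Knockdown replicate 1 had 81 NANOGP1 counts, a share of 6.55% with a 95% exact binomial interval of 5.23% to 8.07%. NANOGP8, which is no member and was named after its values were seen, had 28.3, 36.2 and 35.9 CPM in knockdown, against 40.4, 38.8 and 41.1 CPM in control. Its share of the counts of NANOG and NANOGP8 together was 33% to 34.3% in knockdown and 33.2% to 34.7% in control. The shares of both copies thus overlapped between the groups, and whether the reads of the copies come from NANOG messages was not tested.

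SLC2A3 (ENSG00000059804, chromosome 12, 7919230 to 7936187, minus strand) was the most abundant member in both groups. It had 10017, 10407 and 10019 counts in knockdown replicates 1 to 3, against 19794, 18562 and 19139 counts in control replicates 1 to 3. The levels were 499, 529.5 and 541 CPM in knockdown and 941, 914 and 906 CPM in control, with little spread inside either group. The log2 fold change was -0.81 ± 0.04 (SE), a fold of 0.569. Per kilobase of exon, SLC2A3 averaged 137 ± 5.68 CPM in knockdown and 240.4 ± 4.83 CPM in control (SD, n = 3 each), the 98.9th percentile of tested genes in control cells.

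SLC2A14 (ENSG00000173262, chromosome 12, 7812512 to 7891148, minus strand) was lower too, with more spread. It had 320, 203 and 231 counts in knockdown replicates 1 to 3, and 575, 603 and 543 counts in control replicates 1 to 3. Knockdown replicate 1, at 15.9 CPM, was nearer to the control libraries (25.7 to 29.7 CPM) than replicates 2 and 3, at 10.3 and 12.5 CPM. The log2 fold change was -1.09 ± 0.13 (SE), and -1.27 without knockdown replicate 1. The coding sequence of SLC2A3 was 97.0% identical to its SLC2A14 counterpart, although 1.1% of the 150-base stretches of SLC2A3 and 2.0% of those of SLC2A14 occurred in another gene. SLC2A14 made up 3.10%, 1.91% and 2.25% of the counts of both transporters in knockdown replicates 1 to 3, and 2.82%, 3.15% and 2.76% in control replicates 1 to 3. The share in knockdown replicate 1 lay within the control range, while replicates 2 and 3 lay under it. SLC2A14 and NANOGP1 also overlap by 348 bases on opposite strands. The kit marks strand, but the strand setting of the counting is not stated in the sources used here, so reads in that overlap are uncertain for both genes.

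FOXJ2 (ENSG00000065970, chromosome 12, 8032716 to 8055517, plus strand), at the far end, was lower in each knockdown library. It had 23.9, 24.1 and 22.2 CPM in knockdown replicates 1 to 3, against 35.1, 35.5 and 35.7 CPM in control replicates 1 to 3. The log2 fold change was -0.60 ± 0.08 (SE), a fold of 0.660, and FOXJ2 shared no 150-base stretch with another annotated gene.

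APOBEC1 (ENSG00000111701, minus strand) and NANOGNB (ENSG00000205857, plus strand) were close to silent. APOBEC1 had 0 counts in each knockdown library and 0, 0 and 2 counts in control replicates 1 to 3. NANOGNB had 0 counts in each knockdown library and 0, 2 and 0 counts in control replicates 1 to 3. A count of 0 allows up to 3 counts in a library, which is 0.149 to 0.162 CPM in knockdown and 0.142 to 0.148 CPM in control, so no difference was detectable for either gene at this depth.

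By level per length in control cells, the members ran from SLC2A3 (240.4 ± 4.83 CPM per kilobase) and NANOG (15.2 ± 0.565) over SLC2A14 (7.96 ± 0.578), NANOGP1 (7.36 ± 0.347) and FOXJ2 (6.41 ± 0.0509) down to GDF3 (1.71 ± 0.21) and DPPA3 (0.174 ± 0.0729; SD, n = 3 each). SLC2A14 and NANOGP1 did not differ beyond their spread. In knockdown cells the order was SLC2A3 (137 ± 5.68 CPM per kilobase), GDF3 (14.6 ± 2.29), NANOG (12.8 ± 1.46), NANOGP1 (5.43 ± 1.01), FOXJ2 (4.23 ± 0.18), SLC2A14 (3.73 ± 0.817) and DPPA3 (1.70 ± 0.929). There the ranges of mean ± SD overlapped for GDF3 and NANOG, for FOXJ2 and SLC2A14, and for NANOGP1 and SLC2A14.

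**Figure D3:**
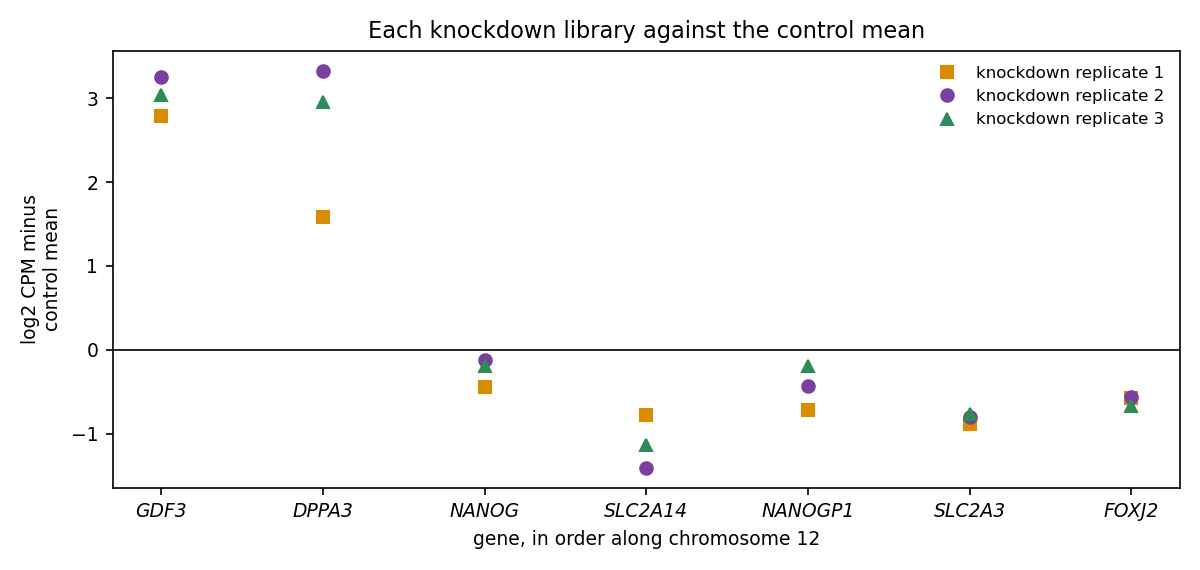
Log2 CPM of each knockdown library minus the mean of the 3 control libraries, for the 7 members that passed the low-count filter, in order along the chromosome. Knockdown replicate 1 is the lowest for GDF3, DPPA3, NANOG, NANOGP1 and SLC2A3 and the highest for SLC2A14, and the 3 libraries lie closest together for SLC2A3 and FOXJ2.

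The knockdown libraries did not shift all members in step. Knockdown replicate 1 was the lowest of the 3 for GDF3 (2.79 above the control mean on the log2 scale), DPPA3, NANOG and NANOGP1 (-0.72), but the highest for SLC2A14 (-0.78, against -1.41 and -1.14 in replicates 2 and 3). For SLC2A3 the 3 values were -0.88, -0.80 and -0.77, and for FOXJ2 -0.57, -0.56 and -0.67. The same library had the highest sum of the neuroectoderm markers, 646 CPM, against 513 and 478 CPM in knockdown replicates 2 and 3 and 439 to 469.8 CPM in control. Of these 10 markers 8 were tested and 3 passed, 1 higher and 2 lower (37.5%, against 51.7% of all tested genes). Without knockdown replicate 1, 8 of the list passed, 1 higher and 7 lower. Over all genes, 9629 of 17714 tested passed in that fit, against 8926 of 17258 with all libraries. NES, a filament protein of neural progenitors, made up 453 to 514 CPM of the knockdown sums and 332 to 362 CPM of the control sums. Without NES the other 9 markers summed to 132 CPM in knockdown replicate 1 but to 27.6 and 25.6 CPM in replicates 2 and 3. In control they summed to 100.4 to 107 CPM, so replicates 2 and 3 lay well under all control libraries. Much of this sum follows DLK1, named after its values were seen. It had 75.7, 2.44 and 1.3 CPM in knockdown replicates 1 to 3 and 45.0 to 52.9 CPM in control. SIX3, a forebrain factor, had 6.97, 0 and 0.054 CPM in knockdown replicates 1 to 3 and 4.8 to 5.27 CPM in control. Their part in the spread of the locus members was not tested. In bulk RNA, a change in the share of cells that express a gene and a change per cell cannot be told apart.

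Genes around the locus passed the threshold about as often as genes elsewhere. Between the outermost members lie 15 other genes of the table, none of which passed the low-count filter; of these CLEC4C, a lectin gene of plasmacytoid dendritic cells, had 1 count in each knockdown library and 3, 2 and 0 in control. Within 1 Mb on either side 48 other genes were tested, and 22 passed (edgeR adjusted p under 0.05), 14 higher and 8 lower. This is 45.8%, against 51.7% of all tested genes, and the median log2 fold change of the 48 was 0.07, against -0.01 over all tested genes. The nearest tested neighbours did not pass. NECAP1, a gene of clathrin-coated vesicles just beyond FOXJ2, averaged 17.7 CPM in knockdown and 17.9 CPM in control (log2 fold change -0.02 ± 0.10, SE; edgeR adjusted p = 0.87). On the other side, the gene ENSG00000255836 was at -0.01 ± 0.26 (edgeR adjusted p = 0.98) and CD163L1, a scavenger receptor gene of macrophages, at -0.48 ± 0.44 (edgeR adjusted p = 0.39). POU5F1P3, a processed copy of the OCT4 gene, was at 0.17 ± 0.12 (edgeR adjusted p = 0.28). Its counterpart in the POU5F1 coding sequence is 98.1% identical, although 3.3% of the 150-base stretches of POU5F1P3 also occurred in POU5F1. How many of its reads came from POU5F1 was not tested, so its counts are uncertain.

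**Figure D4:**
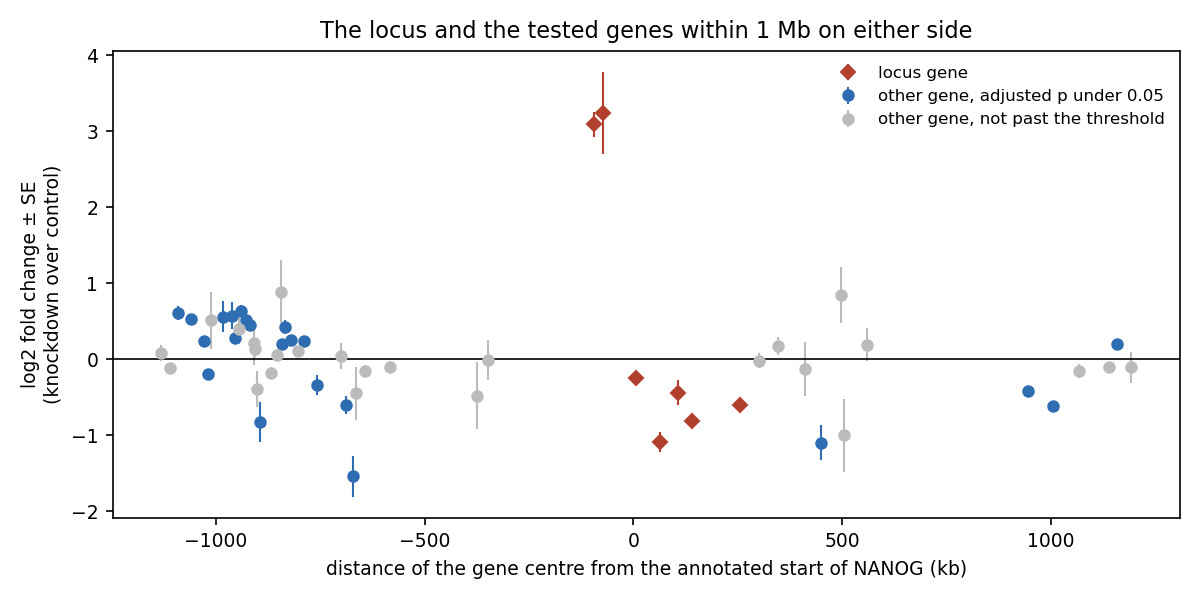
Log2 fold change of knockdown over control with its standard error for the 7 locus genes that passed the low-count filter (red diamonds) and the 48 other tested genes within 1 Mb on either side (blue where the edgeR adjusted p was under 0.05, grey otherwise), against the distance of the gene centre from the annotated start of NANOG in kb. GDF3 and DPPA3 stand above 3, while the other tested genes lie between -1.54 and 0.89.

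Farther out, the 2 sides differed in their counts. Before APOBEC1, 13 of 35 tested genes were higher and 5 lower, with a median log2 fold change of 0.13; beyond FOXJ2, 1 of 13 was higher and 3 lower, with a median of -0.11. The difference between the sides was not tested. The largest rises among called flanking genes with a symbol were those of CDCA3, a cell cycle gene whose product promotes entry into mitosis (0.63 ± 0.08, SE), PIANP (0.61 ± 0.09) and GPR162, an orphan receptor gene (0.57 ± 0.18; edgeR adjusted p = 9.7e-06, 6.9e-05 and 0.017). CDCA3 averaged 40.7 ± 2.28 CPM in knockdown and 26.2 ± 1.68 CPM in control (SD, n = 3 each). The largest falls were those of C1RL-AS1, an antisense RNA (-1.54 ± 0.27), the pseudogene FAM86FP (-1.10 ± 0.23) and LRRC23 (-0.83 ± 0.26; edgeR adjusted p = 2.4e-04, 9.1e-04 and 0.013). LRRC23 was no longer past the threshold without control replicate 1 (edgeR adjusted p = 0.089), and GPR162 was not without control replicate 3 (0.081) or knockdown replicate 3 (0.063). With scaling by library totals alone, which moved the median of all genes to -0.17, 6 flanking genes were higher and 14 lower, and GPR162 did not pass (edgeR adjusted p = 0.071).

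Chromosome 12 as a whole lay near the middle of the chromosomes. Of its 898 tested genes 52.2% passed, 217 higher and 252 lower, with a median log2 fold change of -0.04; the medians of the 23 chromosomes tested (1 to 22 and X) ran from -0.13 to 0.13. On the short arm, taken as genes that end before 33 Mb, 51 of 252 tested genes were higher and 78 lower, with a median of -0.14. The median of the short arm thus lay just under the lowest chromosome median, -0.13. Other chromosome arms were not compared. Library by library, relative to the control mean, the short-arm median stood at -0.20 in knockdown replicate 1 and at -0.10 in the other knockdown libraries. GDF3 and DPPA3 thus lay far above the median of their arm, and the other 5 tested members below it. NANOG was the closest to it, at -0.45, -0.12 and -0.19 in knockdown replicates 1 to 3. Without knockdown replicate 1, the log2 fold change of NANOG was -0.15 and the median of the arm -0.11. Since the members were picked on this contrast, their place beside the arm is a description.

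GDF3 was set beside its signalling partners. Of 19 tested genes of the NODAL and GDF3 pathway other than GDF3, 7 rose and 6 fell (68.4% called, against 51.7% of all tested genes), with a median log2 fold change of 0.13. NODAL itself passed (0.63 ± 0.25, edgeR adjusted p = 0.046), but the groups overlapped. It had 12.1, 6.11 and 5.72 CPM in knockdown replicates 1 to 3 and 4.45 to 6.42 CPM in control. Among the secreted antagonists of NODAL, LEFTY1 and LEFTY2 rose: LEFTY1 averaged 6.61 ± 0.959 CPM in knockdown and 1.83 ± 0.41 CPM in control (log2 fold change 1.85 ± 0.21, edgeR adjusted p = 3.7e-06), and LEFTY2 14.9 ± 1.75 CPM in knockdown and 9.44 ± 1.29 CPM in control (0.65 ± 0.13, edgeR adjusted p = 6.0e-04). CER1, another secreted antagonist, did not pass (0.60 ± 0.51, edgeR adjusted p = 0.35), with 6.08, 1.22 and 0.864 CPM in knockdown replicates 1 to 3 and 1.57 to 1.97 CPM in control. FST, on the same list, did not pass either (-0.69 ± 0.34, edgeR adjusted p = 0.1). It had 33.9, 10.1 and 7.78 CPM in knockdown replicates 1 to 3 and 26.4 to 29.5 CPM in control. INHBA, which encodes an activin subunit, rose by 1.25 ± 0.33 (edgeR adjusted p = 0.0053), although knockdown replicate 1 at 1.64 CPM lay within the control range of 1.08 to 1.66 CPM. On the receiving side, the type I receptor ACVR1C was at -1.33 ± 0.20, the signal transducer SMAD3 at -0.45 ± 0.08 and its DNA-binding partner FOXH1 at -0.37 ± 0.06 (edgeR adjusted p = 4.7e-05, 2.2e-04 and 7.4e-05). The co-receptor TDGF1 averaged 532 ± 22.2 CPM in knockdown and 451 ± 6.53 CPM in control (log2 fold change 0.24 ± 0.04; edgeR adjusted p = 3.1e-04). With library totals alone, TDGF1 did not pass (0.08, edgeR adjusted p = 0.14), and 3 genes of this list were higher in place of 7.

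NANOG was set beside the pluripotency network. Of the other 21 listed genes, all tested, 9 rose and 7 fell (76.2% called), with a median log2 fold change of 0.00. DNMT3B, a DNA methyltransferase abundant in primed stem cells, averaged 2728 ± 39.2 CPM in knockdown and 1296 ± 1.89 CPM in control (1.07 ± 0.04, edgeR adjusted p = 1.0e-11). PRDM14, a repressor that guards the pluripotent state, rose by 0.93 ± 0.06 and LINC-ROR, a long noncoding RNA, by 2.80 ± 0.18 (edgeR adjusted p = 2.8e-09 and 8.8e-09). The largest falls were those of OTX2, a factor of primed and anterior neural cells (-0.66 ± 0.13), FGF2 (-0.63 ± 0.05) and LIN28B, a repressor of let-7 microRNAs (-0.46 ± 0.05; edgeR adjusted p = 5.2e-04, 3.9e-08 and 4.3e-06). With library totals alone 11 genes of this list were lower in place of 7.

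DPPA3 was set beside naive and germ cell markers, among which both directions occurred. Of 9 other tested naive markers 2 rose and 3 fell (55.6% called, near the 51.7% of all tested genes), with a median log2 fold change of 0.20. NLRP7, a maternal-effect gene, rose by 1.24 ± 0.25 and ALPG, a phosphatase gene, by 1.09 ± 0.34, while KLF5 (-1.33 ± 0.20), TFAP2C (-0.91 ± 0.10) and TFCP2L1 (-0.58 ± 0.11), transcription factors of naive cells, fell (edgeR adjusted p = 6.4e-04, 0.013, 4.9e-05, 3.6e-06 and 2.7e-04). ALPG was no longer past the threshold without control replicate 2 (edgeR adjusted p = 0.056) or knockdown replicate 2 (0.057). KLF17, a defining naive factor, had a mean of 0 CPM in knockdown and 0.0158 CPM in control. The 15 naive genes found in the table, DPPA3 included, summed to 45.5 to 47.6 CPM in knockdown and 58.6 to 65.5 CPM in control. Most of that sum came from TFAP2C, at 12.6 CPM in knockdown and 23.8 CPM in control, and TFCP2L1, at 12.3 and 18.5 CPM. The sum thus mainly follows these genes and is no measure of the list as a whole, in which 2 of the other tested genes rose. Of 9 other tested germ cell markers 3 rose and 2 fell (55.6% called, again near the share of all tested genes), with a median of -0.07. PDPN, a surface glycoprotein, rose by 0.89 ± 0.06 and KIT, the receptor of stem cell factor, by 0.50 ± 0.08 (edgeR adjusted p = 1.1e-08 and 5.7e-05). Both are also expressed outside germ cells. TFAP2C, which is on this list too, fell. EPCAM, an epithelial adhesion gene, was at 0.18 ± 0.05 and ITGA6, an integrin gene, at -0.28 ± 0.05 (edgeR adjusted p = 0.011 and 1.2e-04). EPCAM was no longer past the threshold without control replicate 1 (0.13, edgeR adjusted p = 0.051) or with library totals alone (0.02, 0.73). NANOS3, a defining factor of primordial germ cells, averaged 0.0886 CPM in knockdown and 0.0639 CPM in control and was not tested.

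Among DNA methylation genes, in which DPPA3 has its mouse role, 4 of 8 other genes rose and 1 fell (62.5% called), with a median of 0.17. UHRF1, the protein that brings maintenance methylation to replicating DNA, averaged 92.8 ± 9.52 CPM in knockdown and 58.8 ± 2.25 CPM in control (0.66 ± 0.07, edgeR adjusted p = 1.7e-06). The maintenance enzyme DNMT1 rose by 0.34 ± 0.04 and the repair glycosylase TDG by 0.65 ± 0.06, and the oxidase TET3 was at -0.30 ± 0.07 (edgeR adjusted p = 1.1e-05, 4.8e-07 and 0.0012). With library totals alone, 3 genes of this list were lower in place of 1.

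The glucose transporters of the locus were set beside the rest of their family. Of 9 other tested transporters 3 rose and 2 fell (55.6% called), with a median log2 fold change of 0.09. SLC2A1, the ubiquitous transporter GLUT1, averaged 399 ± 65.7 CPM in knockdown and 400.4 ± 20.1 CPM in control and did not pass (-0.01 ± 0.08, edgeR adjusted p = 0.96). SLC2A4, the insulin-responsive transporter GLUT4, rose by 1.64 ± 0.16, SLC2A6 by 1.06 ± 0.10 and SLC2A13, a myo-inositol transporter, by 0.51 ± 0.12 (edgeR adjusted p = 6.3e-07, 2.9e-07 and 0.0017). SLC2A10 was at -0.79 ± 0.10 and SLC2A11 at -0.43 ± 0.13 (edgeR adjusted p = 5.6e-06 and 0.012), and SLC2A11 was no longer past the threshold without control replicate 1 (0.076). Over all 16 genes, SLC2A3 and SLC2A14 included, the sum was 974 to 1078 CPM in knockdown and 1411 to 1468 CPM in control. Most of it came from SLC2A1 and SLC2A3, and SLC2A3 averaged 523 CPM in knockdown and 920.1 CPM in control. The gap between the sums thus mainly follows SLC2A3, a member picked on this contrast, and is no measure of the family.

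For APOBEC1, none of 7 tested relatives and cofactors rose and 2 fell (28.6% called): RBM47, a cofactor of APOBEC1 (-0.29 ± 0.06, edgeR adjusted p = 5.0e-04), and APOBEC3F (-0.42 ± 0.16, edgeR adjusted p = 0.040). The APOBEC3F call was lost without control replicate 2 or 3 or knockdown replicate 1 or 2 (edgeR adjusted p = 0.091, 0.16, 0.095 and 0.10). The other cofactor, A1CF, had a mean of 0 CPM in knockdown and 0.0473 CPM in control. Of the relatives of FOXJ2, FOXJ3 averaged 78.5 ± 0.957 CPM in knockdown and 92.9 ± 1.19 CPM in control (-0.24 ± 0.05, edgeR adjusted p = 9.3e-04), and FOXJ1, the master regulator of motile cilia, did not pass (-0.30 ± 0.23, edgeR adjusted p = 0.29).

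**Figure D5:**
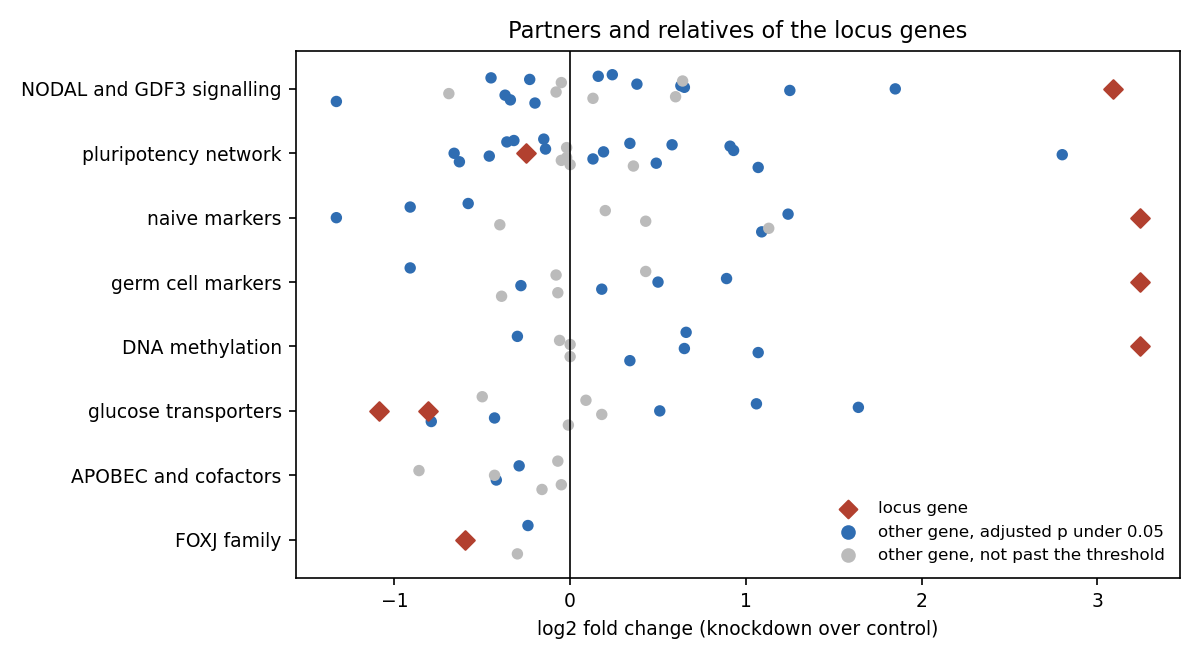
Log2 fold change of knockdown over control for the tested genes of 8 lists built around the locus genes. Red diamonds are locus genes, blue points other genes with an edgeR adjusted p under 0.05 and grey points other genes past no threshold: in the naive, germ cell and DNA methylation lists DPPA3 at 3.24 lies right of all other genes, while most list genes lie within about 1 of 0.

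For each tested member, the 3 genes with the most similar profile over the 6 libraries are named. They were sought among tested genes with a symbol, other than members. Chromosome 12 holds 898 of all 17258 tested genes, so hits on other chromosomes carry no information about the locus. Being picked from many genes, these hits can lie nearer than any single neighbour. Likeness was the Euclidean distance between log2 CPM profiles, each centred on its own mean, with a small value for profiles of like shape and size. For GDF3 the nearest were HSPA8, a constitutive HSP70 chaperone on chromosome 11 (distance 0.437), LINC-ROR (0.469) and the stress-inducible HSPA1A on chromosome 6 (0.529); its neighbour DPPA3 lay at 1.35. For DPPA3 they were EVPL (0.749), TNMD (1.25) and IQSEC2 (1.33), with its neighbour GDF3 at 1.35. For NANOG they were KAT7, a histone acetyltransferase gene (0.0758), CDKN1B, a cell cycle inhibitor gene that lies on chromosome 12 too (0.0811), and THUMPD2 (0.0815), while its copy NANOGP1 lay at 0.338 and its neighbour SLC2A14 at 1.26. For SLC2A3 they were BLZF1 (0.0664), GPT2, an alanine transaminase gene (0.0695), and SIAH2, a ubiquitin ligase gene (0.0841), with FOXJ2 at 0.314 and SLC2A14 at 0.640. For FOXJ2 they were DCAF10 (0.0453), FGF2 (0.0488) and RBM39, a splicing factor gene (0.0526). For SLC2A14 they were BCAS3 (0.0884), LRRFIP1P1 (0.149) and NMU (0.157), and for NANOGP1 they were MTMR7 (0.147), ANKRD18B (0.151) and APOBEC3F (0.162).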

How the data were processed

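Poly-A RNA of H7 cells was read in 3 SAMD4A knockdown and 3 control libraries. The authors deposited raw counts per Ensembl gene, whole numbers with no normalization; HISAT2, HTSeq and GRCh38 are named in the submitters' processing notes, without versions, counting options or strand setting. Gene symbols, coordinates and exon lengths are those of the deposited table. Exon length, an other deposited column, served for levels per kilobase.

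In R 4.3.3, filterByExpr of edgeR 4.0.16 kept 17258 genes, and TMM factors scaled the libraries. The quasi-likelihood test of edgeR, without a preset direction, compared the groups, and p-values were adjusted over these genes by Benjamini-Hochberg (threshold 0.05). Log2 fold changes are knockdown over control, and each SE is the fold change divided by the root of its F value. Profiles used log2 CPM with a prior count of 2. Alternatives were DESeq2 1.42.0, limma-voom (limma 3.58.1), a replicate block, leaving out single libraries, and changes of scaling or of the filter on low counts. The fit was tested on simulated counts. Replicate libraries differed by more than sampling noise (chi-square per degree of freedom 2.78 to 7.85 within groups).

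The locus genes and the 11 gene lists were chosen with earlier results of these data known. By rule the text names the 9 locus genes, SAMD4A, genes between the members and the 3 most alike profiles. The rule also takes the 3 largest rises and falls among called genes of the flanks and of each list. Lists of mesendoderm, neuroectoderm and trophoblast markers are given by their sums or counts. Other genes named with values fall outside this rule, so their choice may have followed their values. Among them are NANOGP8, DPPA3P2, SIX3, DLK1, NODAL, CER1, FST, TDGF1, SLC2A1, KLF17, NANOS3, A1CF and FOXJ1. Promoters are from RefSeq (GRCh38.p14); copies were compared with Biopython 1.88 on GENCODE 29 transcripts.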

Additional observations from a re-analysis of the deposited data

How the results depend on the processing

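Every log2 fold change of the 7 tested locus genes kept its direction under all alternatives that gave a value. With at least 1 CPM required in 3 libraries DPPA3 was not tested, and 6 locus genes were past the threshold. The count was 7 with the replicate block, 6 with DESeq2 and with no low-count filter, where NANOGP1 was lost, and 5 to 7 with 1 library left out, 5 being without control replicate 3. NANOGP1 was lost in 5 of those runs and NANOG in 1. The members were picked on this same contrast, so these counts describe the fit and are no test of the members. Leaving out 1 library, the log2 fold change was 2.97 to 3.20 for GDF3, 2.85 to 3.63 for DPPA3, -0.31 to -0.15 for NANOG and -1.27 to -0.95 for SLC2A14. With library totals alone, NANOG was at -0.41, SLC2A3 at -0.97, FOXJ2 at -0.76 and the median of the short arm at -0.30; 2704 genes were higher and 6410 lower, against 4503 and 4423 with TMM factors, and among flanking genes 6 were higher and 14 lower, against 14 and 8. That scaling put the median of all genes at -0.17, while TMM factors align the bulk of the genes by assumption. Which scaling is nearer to the true levels was not tested. The replicate numbers did not pair the libraries: same-numbered libraries correlated at -0.04 to -0.01 in their deviations, and the replicate block gave 8434 calls against 8926. The neuroectoderm list held 3 called genes of 8 tested (37.5%, against 51.7% of all tested genes), and 8 without knockdown replicate 1. In that fit 9629 of all 17714 tested genes were called. The mesendoderm list held 1 called gene of 3 tested, which was lower. The trophoblast and amnion list held 2 of 3, each lower. With 3 tested genes, each of these lists is too small to set beside the 51.7%. Low counts limit DPPA3, with 12 in control, and intervals cover counting error only.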
